A study of Xenopus tropicalis with 27 samples.

Results

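RNA of untreated brains of wildtype Xenopus tropicalis tadpoles was compared between stage 44 and stage 42, 2 adjacent points of a course that also sampled stages 40, 45, 46 and 47. X. tropicalis is a diploid clawed frog, and stages follow the standard table of Xenopus development. The comparison used 6 libraries, replicates 1 to 3 of each of these stages, out of 18 in the time course and 27 in the series. All 6 came from polyadenylated RNA made into stranded libraries for low input, with no drug. The number of brains behind a stage 42 or stage 44 library is not given in the sources used here, and nothing in the labels ties the replicates to separate clutches, so the p-values here speak of sample-to-sample spread alone, some of which could be technical.

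At these stages the tadpole has hatched and swims, and shortly afterwards it begins to feed. Its brain is still adding neurons from a proliferating ventricular zone, while axon tracts lengthen, the choroid plexus starts to make cerebrospinal fluid, vessels acquire barrier properties and oligodendrocytes begin to make myelin proteins. The comparison asks how far the transcriptome moved over this short interval.

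The 6 libraries held between 17333830 and 23218758 counts. Levels are given as CPM, a gene's counts scaled to a common library total, and fold changes as log2 of stage 44 over stage 42 ± SE with 3 libraries per stage. Calls rest on edgeR's quasi-likelihood test over 16049 genes, with a Benjamini-Hochberg adjusted p under 0.05. Stage 42 replicate 1 stood apart from its group: its counts differed from those of replicates 2 and 3 by a chi-square per gene of 9.35 and 13.5, against 5.79 between replicates 2 and 3. At stage 44, replicates 2 and 3 differed by 9.54, against 6.05 for replicates 1 and 2 and 4.9 for replicates 1 and 3. The biological coefficient of variation was 0.102 over the stage 42 libraries and 0.0719 without that replicate, against 0.0834 at stage 44. Counts of calls are given with and without stage 42 replicate 1, whose removal raised them, and for several lists also without a library whose removal lowered them. Over all 16049 genes the fit without stage 42 replicate 1 called 718 higher and 458 lower, to be set beside its list counts. As a check of the labelled tissue, all 9 neuron markers and all 8 markers of neural progenitors were measured, and the summed neuron markers stood at 6998 to 7738 CPM at stage 42 and 6331 to 6926 CPM at stage 44. Markers of other tissues were present, at summed levels whose ranges overlapped between the stages for those given here. The highest were red blood cell markers, at 938 to 1097 CPM at stage 42 and 865 to 1073 CPM at stage 44, and cartilage markers, at 423 to 579 CPM and 546 to 589 CPM. In the wider list of 20 red blood cell genes none was called (0 higher and 2 lower without stage 42 replicate 1), and the median was -0.31. Of the 20, 10 had an unadjusted p under 0.05, against 2801 of all 16049 genes. The part of red blood cells in the falls was not tested. At stages 42 and 44 skeletal muscle ran from 21.2 to 141 CPM and from 19.3 to 153 CPM, epidermis from 60.6 to 76.5 CPM and from 53.4 to 74.2 CPM, melanocytes from 85.8 to 113 CPM and from 59.0 to 91.9 CPM, and pituitary from 43.4 to 64.1 CPM and from 4.36 to 125 CPM.

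Few genes were called between the stages. Of the 16049 genes, 373 were called (2.32%): 230 were higher at stage 44 (1.43%) and 143 lower (0.891%). The steps on either side each share a stage with this one and are given for scale only: 47% of genes were called from stage 40 to 42 and 22.8% from stage 44 to 45. From stage 45 to 46, which shares no library with it, 42.1% were called, and from stage 46 to 47, 48.8% (25.8% lower). The median absolute log2 fold change over all genes was 0.12 at this step and 0.25 from stage 45 to 46. At an unadjusted p under 0.05, 2801 genes passed. The biological coefficient of variation was higher at stage 42 (0.102) than at any other stage. The part of this spread in the low count of calls was not tested.

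**Figure D1:**
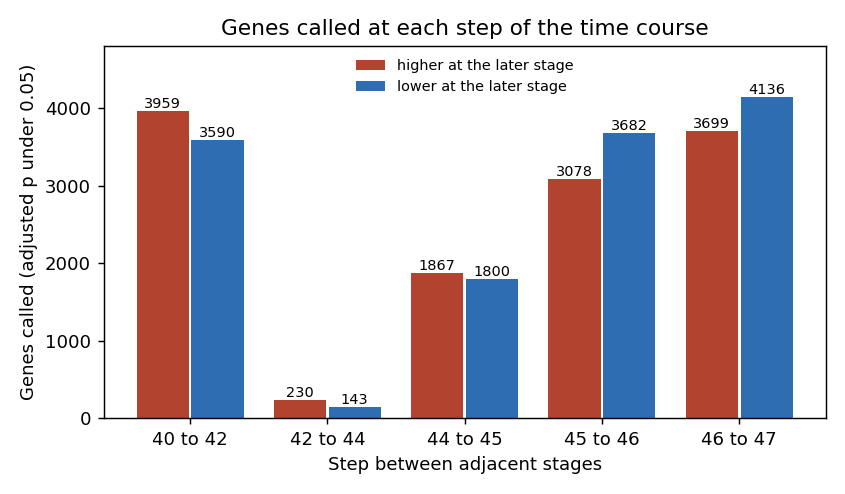
Bars show the number of genes called higher (red) and lower (blue) at the later stage for each pair of adjacent stages, on a linear axis from 0. The step from stage 42 to 44 has 230 and 143 calls, and every other step has at least 1800 in each direction.

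Most of the rises were below 2-fold, and the falls were smaller still. Among the genes called higher, 43 rose by more than 2-fold and 121 by less than 1.5-fold, with a median absolute log2 change of 0.57. Of those called lower, 4 fell by more than 2-fold and 130 by less than 1.5-fold, with a median of 0.31. The 3 libraries of one stage lay wholly beyond the 3 of the other for 226 of the higher and 140 of the lower genes, against 3206 of all genes tested. Without stage 42 replicate 1 the test called 1176 genes, 718 higher and 458 lower, 357 of them shared with the 373. Fitted on the 6 libraries alone, it called 120. That fit has fewer degrees of freedom and takes its spread from stages 42 and 44 only. The other stages enter the main fit, with biological coefficients of variation of 0.0902, 0.0553, 0.0634 and 0.0683 at stages 40, 45, 46 and 47. What lowered the count was not tested. Leaving out another single library gave 143 calls without stage 42 replicate 2, 173 without stage 42 replicate 3, 170 without stage 44 replicate 1, 287 without stage 44 replicate 2 and 247 without stage 44 replicate 3.

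Leaving aside genes whose mean log2 CPM was under 1, the largest rise was in the breakdown of tyrosine, which the liver is best known for. The gene tat, tyrosine aminotransferase, which takes the first step, measured 1.05, 0.674 and 0.785 CPM at stage 42 and 6.46, 4.60 and 7.11 CPM at stage 44. Every stage 44 library was several times above every stage 42 library (log2 fold change 2.87 ± 0.22, edgeR adjusted p = 5.66e-08). The next enzyme, hpd (4-hydroxyphenylpyruvate dioxygenase), measured 33.6, 28.7 and 27.3 CPM at stage 42 and 75.2, 73.5 and 80.7 CPM at stage 44, with no overlap and little spread within a stage (1.36 ± 0.08, edgeR adjusted p = 2.00e-10). The last, fah (fumarylacetoacetase), measured 5.57, 4.87 and 5.26 CPM at stage 42 and 11.6, 9.56 and 12.1 CPM at stage 44, again without overlap (1.09 ± 0.15, edgeR adjusted p = 0.000294). All 3 calls held when any 1 library was left out.

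The remaining enzymes of the route did not pass the test. The third, hgd (homogentisate dioxygenase), measured 5.07, 3.21 and 4.43 CPM at stage 42 and 7.94, 6.55 and 7.72 CPM at stage 44 (0.81 ± 0.28, edgeR adjusted p = 0.138), and its libraries did not overlap either. The fourth, gstz1, gave 0.28 ± 0.20, edgeR adjusted p = 0.487, and pah, which makes tyrosine from phenylalanine, gave -0.10 ± 0.13, edgeR adjusted p = 0.719. Over the course the mean of tat went from 0.0734 CPM at stage 40 to 81.2 CPM at stage 47, that of hpd from 6.57 to 102 CPM and that of fah from 4.64 to 39.4 CPM. These enzymes were grouped after their values had been seen. Of 7 liver markers, apoa1, serpina1 and tf were measured, while alb, fga, fgb and fgg had no entry by symbol in the deposited counts. The summed level of the 3 measured was 4.85 to 9.08 CPM at stage 42 and 6.83 to 8.74 CPM at stage 44, with none called. The part of liver RNA in the rise was not tested. The wider list of 8 liver and plasma proteins had 2 called higher, rbp4 and a2m, and none lower (3 and 0 without stage 42 replicate 1), with 7 of 8 above 0 and a median of 0.63. Over all genes, 1.43% were called higher. The summed level of the list was 60.5, 53.1 and 42.4 CPM at stage 42 and 107, 94.98 and 109 CPM at stage 44, so it was higher at stage 44 as tat, hpd and fah were. Of that sum rbp4 alone had a mean of 29.95 CPM at stage 42 and 73.9 CPM at stage 44.

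Membrane transporters made up several of the other large rises. The cationic amino acid transporter slc7a2.1 measured 19.4, 14.2 and 17.04 CPM at stage 42 and 53.5, 59.2 and 62.0 CPM at stage 44 (1.79 ± 0.11, edgeR adjusted p = 1.61e-09). A neighbouring copy, slc7a2.2, gave 1.498 ± 0.27, edgeR adjusted p = 0.00356; the copies may share reads, so each is uncertain as a single gene. In the list of astroglial genes, 2 of 21 measured members were called higher and none lower, against 1.43% of all genes called higher. The sodium bicarbonate cotransporter slc4a4 measured 17.3, 19.03 and 15.7 CPM at stage 42 and 35.96, 36.2 and 42.1 CPM at stage 44, with each stage in a narrow band (1.14 ± 0.12, edgeR adjusted p = 1.05e-05). The neutral amino acid exchanger slc7a10, which in mammals carries glycine and D-serine in astrocytes, measured 16.2, 16.8 and 15.8 CPM at stage 42 and 31.9, 28.3 and 33.6 CPM at stage 44 (0.95 ± 0.16, edgeR adjusted p = 0.00324). The glutamate transporters slc1a2 and slc1a3, which define astroglia, were not called, at -0.06 ± 0.08, edgeR adjusted p = 0.764 and -0.11 ± 0.07, edgeR adjusted p = 0.468. With stage 42 replicate 1 left out, 5 astroglial genes were higher, beside 718 of all 16049 genes.

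Genes of the choroid plexus and of the barriers around the brain rose in part. Of 19 choroid plexus and ependymal genes, 3 were higher and none lower, also without stage 42 replicate 1 apart from 1 lower call, with a list median of 0.20 against 0.0013 over all genes. Over all genes, 1.43% were called higher. The sodium sulfate cotransporter slc13a4 measured 2.01, 3.63 and 2.12 CPM at stage 42 and 7.20, 6.14 and 6.67 CPM at stage 44 (1.38 ± 0.23, edgeR adjusted p = 0.0021). The chloride channel family member clic6 measured 29.1, 21.7 and 19.7 CPM at stage 42 and 43.8, 43.1 and 40.7 CPM at stage 44, well clear of each other (0.86 ± 0.15, edgeR adjusted p = 0.00605). The water channel aqp1 gave 0.78 ± 0.19, edgeR adjusted p = 0.0319, a call lost without stage 42 replicate 2 or 3 or stage 44 replicate 2 or 3, where the edgeR adjusted p reached 0.174. The fate genes of this epithelium did not pass, with otx2 at 0.10 ± 0.08, edgeR adjusted p = 0.562, lmx1a at -0.15 ± 0.11, edgeR adjusted p = 0.497 and the potassium channel kcnj13 at 0.29 ± 0.13, edgeR adjusted p = 0.258.

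Outside the choroid plexus list, rbp4, which carries retinol in plasma and cerebrospinal fluid, was higher (1.31 ± 0.16, edgeR adjusted p = 0.000483). It measured 37.4, 29.7 and 22.8 CPM at stage 42 and 77.8, 63.8 and 80.1 CPM at stage 44. Every stage 44 library was above every stage 42 library. The dicarboxylate cotransporter slc13a3 gave 1.06 ± 0.18, edgeR adjusted p = 0.00164. Another transporter, slc6a13, a GABA transporter of the leptomeninges in mice, measured 45.9, 36.7 and 33.2 CPM at stage 42 and 57.3, 60.8 and 60.8 CPM at stage 44 (0.63 ± 0.11, edgeR adjusted p = 0.00241). Of 30 genes of the endothelium and barrier, 2 were higher and none lower (3 higher without stage 42 replicate 1). Of all genes, 1.43% were called higher. The efflux pump abcg2 measured 34.8, 38.2 and 37.6 CPM at stage 42 and 48.9, 48.8 and 46.9 CPM at stage 44 (0.39 ± 0.07, edgeR adjusted p = 0.00318). The glucose transporter slc2a1 gave 0.37 ± 0.09, edgeR adjusted p = 0.0332, a call lost without stage 42 replicate 2 or 3 or stage 44 replicate 2 or 3 (adjusted p at most 0.175). Summed endothelial markers were close, at 129 to 142 CPM at stage 42 and 140.2 to 149 CPM at stage 44, with none of 6 called. In whole brains, more cells of a type and more RNA per cell cannot be told apart.

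**Figure D2:**
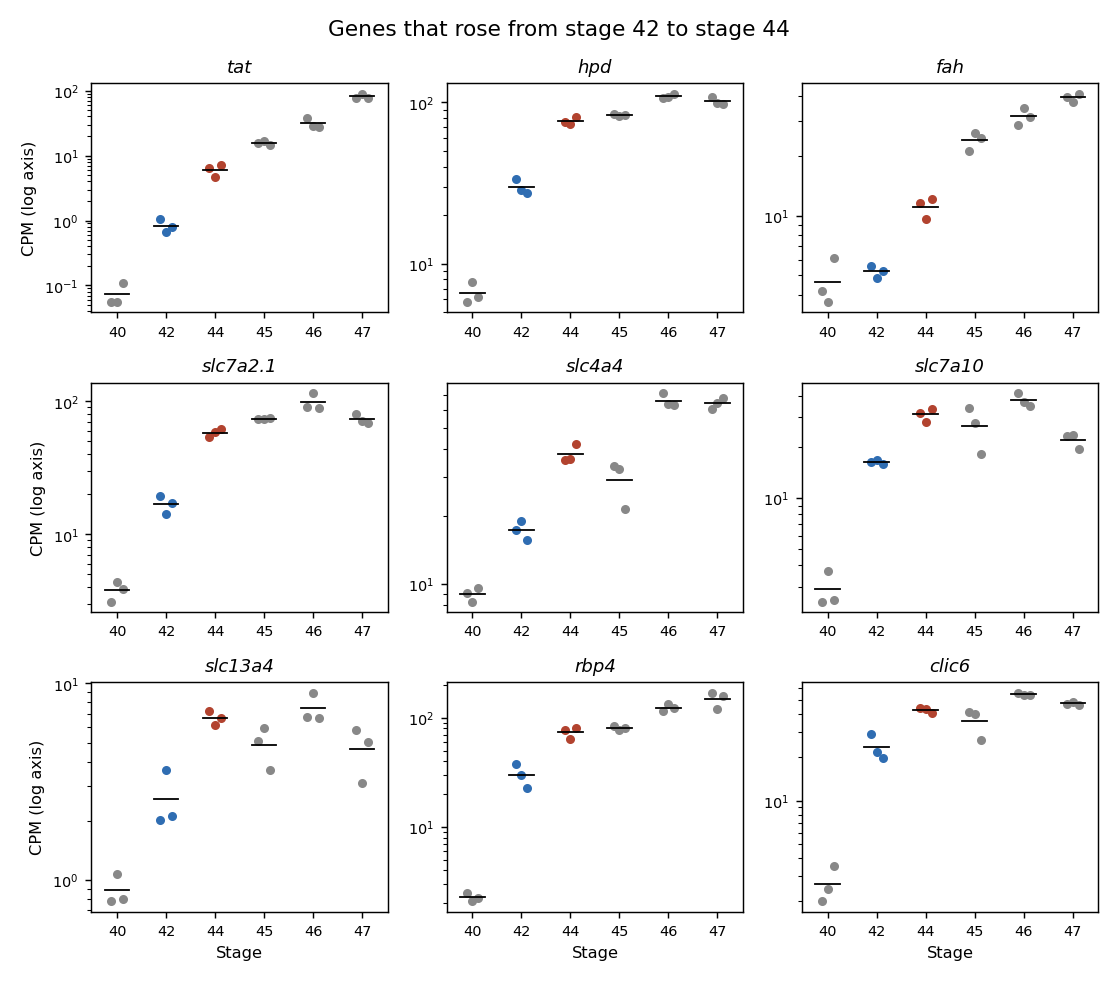
CPM of 9 genes that rose, on logarithmic axes, for each of the 18 libraries at the 6 stages (equally spaced categories); points are libraries, bars are means of 3, and stage 42 is blue and stage 44 red. In each panel the 3 stage 44 libraries lie above the 3 stage 42 libraries, and tat and fah are higher again at each later stage.

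A few early myelin genes rose, while the genes that mark the oligodendrocyte lineage did not pass the test. Of 25 measured members, 3 were higher and none lower (2 and 0 without stage 42 replicate 1, 1 and 0 without stage 42 replicate 2), with a list median of 0.09. Over all genes, 1.43% were called higher. The fatty acid hydroxylase fa2h, which makes myelin lipids, gave 1.21 ± 0.30, edgeR adjusted p = 0.0359. Its levels were low, at 0.803, 0.467 and 1.15 CPM at stage 42 and 2.40, 2.07 and 1.22 CPM at stage 44. The myelin-associated glycoprotein mag gave 0.51 ± 0.14, edgeR adjusted p = 0.0486. The fa2h call was lost without stage 42 replicate 2 or stage 44 replicate 1 or 2, and that of mag in every fit but that without stage 42 replicate 3, with adjusted p up to 0.186 and 0.211. By contrast mbp, myelin basic protein, gave 0.14 ± 0.07, edgeR adjusted p = 0.289, and the lineage factors olig2 and sox10 gave 0.17 ± 0.10, edgeR adjusted p = 0.399 and -0.23 ± 0.15, edgeR adjusted p = 0.433.

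Further single calls were axonal. The adhesion molecule cntn2, which in mammals flanks the nodes of Ranvier, measured 6.42, 5.91 and 7.48 CPM at stage 42 and 11.3, 7.38 and 10.4 CPM at stage 44 (0.56 ± 0.14, edgeR adjusted p = 0.0304). The contactin-associated gene cntnap1, named after its values were seen, measured 16.7, 15.4 and 20.4 CPM at stage 42 and 28.2, 19.95 and 28.6 CPM at stage 44 (0.55 ± 0.12, edgeR adjusted p = 0.0161). In cntnap1 1 stage 44 library lay below the highest stage 42 library. Both calls were lost without stage 42 replicate 2 or stage 44 replicate 1 or 3, where the adjusted p reached 0.155 and 0.106. The neurofilament light chain nefl, an intermediate filament of maturing axons, measured 92.9, 87.8 and 115 CPM at stage 42 and 141, 132 and 139 CPM at stage 44 (0.48 ± 0.10, edgeR adjusted p = 0.0119). Its call was lost without stage 42 replicate 2 or stage 44 replicate 1 (adjusted p at most 0.0789).

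Within the list of extracellular matrix genes the calls went in one direction. Of 47 measured, 5 were higher and none lower (7 and 1 without stage 42 replicate 1), with a list median of 0.09. The share called higher over all genes was 1.43%. Outside this list, the matrix proteins matn4 and tgfbi were called lower and are described below. The fibrillin fbn1 gave 0.59 ± 0.14, edgeR adjusted p = 0.0194, the elastin eln1 0.65 ± 0.15, edgeR adjusted p = 0.0194, the collagen col6a3 0.78 ± 0.18, edgeR adjusted p = 0.0244 and the laminin subunit lama2 0.52 ± 0.14, edgeR adjusted p = 0.0432. The brain proteoglycan bcan, a component of the matrix around neurons, measured 134, 145 and 152 CPM at stage 42 and 153, 199 and 175 CPM at stage 44 (0.29 ± 0.07, edgeR adjusted p = 0.03). All 5 calls were lost without stage 42 replicate 2 and none without stage 42 replicate 1. The calls of fbn1, eln1 and lama2 were lost without stage 42 replicate 3, those of fbn1, col6a3 and lama2 without stage 44 replicate 1, those of eln1, bcan and lama2 without stage 44 replicate 2, and all but that of fbn1 without stage 44 replicate 3, with adjusted p up to 0.186. The protease inhibitor a2m, from the list of plasma proteins, measured 7.48, 8.92 and 6.83 CPM at stage 42 and 14.2, 13.9 and 13.4 CPM at stage 44 and kept its call throughout (0.84 ± 0.13, edgeR adjusted p = 0.00122).

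Several rises fell outside these groups. The secreted protease pappa2, which cleaves a binding protein of insulin-like growth factors, measured 10.1, 8.19 and 6.70 CPM at stage 42 and 18.003, 18.5 and 15.2 CPM at stage 44 (1.05 ± 0.13, edgeR adjusted p = 0.000107). The calmodulin-dependent kinase pnck measured 4.22, 3.01 and 4.06 CPM at stage 42 and 8.22, 5.903 and 8.24 CPM at stage 44 (0.995 ± 0.13, edgeR adjusted p = 0.000249). The neuropeptide gene pth2, which encodes the tuberoinfundibular peptide, measured 5.12, 2.64 and 2.91 CPM at stage 42 and 8.45, 7.56 and 8.68 CPM at stage 44 (1.21 ± 0.21, edgeR adjusted p = 0.00308). Stage 44 stood wholly above stage 42 in these 3 genes. The neuronal elongation factor eef1a2, named after its values were seen, measured 51.9, 41.7 and 55.4 CPM at stage 42 and 83.3, 81.3 and 81.7 CPM at stage 44 (0.72 ± 0.07, edgeR adjusted p = 4.52e-06). The glycoprotein gpnmb, known from pigment cells and macrophages, gave 1.66 ± 0.30, edgeR adjusted p = 0.00356. None of 14 melanocyte genes was called (5 lower without stage 44 replicate 2, 1 lower without stage 42 replicate 1). Of the 14, 10 had an unadjusted p under 0.05, against 2801 of all 16049 genes, and the list median was -0.56. The part of these cells was not tested. Further members of the 15 largest rises were nectin1l1 (1.04 ± 0.18, edgeR adjusted p = 0.00293) and naalad2 (0.99 ± 0.21, edgeR adjusted p = 0.0138), the latter lost without stage 42 replicate 3 or stage 44 replicate 1, where the adjusted p reached 0.0903.

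Signalling genes contributed single calls. The share of all genes called higher was 1.43%. The thyroid hormone receptor thrb, through which the hormone drives amphibian metamorphosis, measured 5.32, 6.01 and 5.54 CPM at stage 42 and 9.19, 7.26 and 7.54 CPM at stage 44, with no overlap (0.51 ± 0.12, edgeR adjusted p = 0.0273). It was the only member called of 23 in the thyroid axis (1 higher and 1 lower without stage 42 replicate 1). Its call was lost without stage 42 replicate 2 or 3 or stage 44 replicate 1, with an adjusted p up to 0.139. The related receptor thra gave 0.42 ± 0.24, edgeR adjusted p = 0.373, the deiodinase dio3 -0.37 ± 0.28, edgeR adjusted p = 0.525 and the thyroid hormone response gene klf9 -0.74 ± 0.29, edgeR adjusted p = 0.175. Among 38 neuropeptide and processing genes, the prohormone convertase pcsk1 (0.42 ± 0.09, edgeR adjusted p = 0.00963) and the somatostatin gene sst.1 (0.54 ± 0.12, edgeR adjusted p = 0.0188) were higher and none was lower, and without stage 42 replicate 1 there were 6 higher. Both calls were lost without stage 42 replicate 2 or stage 44 replicate 1, pcsk1 also without stage 44 replicate 3 and sst.1 also without stage 42 replicate 3 or stage 44 replicate 2 (adjusted p at most 0.0571 and 0.0885). The DNA methyltransferase dnmt3a, which sets new methylation, measured 559, 565 and 522 CPM at stage 42 and 687, 666 and 716 CPM at stage 44 and kept its call in every leave-one-out fit (0.33 ± 0.06, edgeR adjusted p = 0.00407).

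The falls were shallow. Of 11 measured tubulin subunits, the building blocks of microtubules, 4 were lower and none was higher, with and without stage 42 replicate 1, against 0.891% of all genes called lower. The count was 1 without stage 44 replicate 1, 2 without stage 42 replicate 2 or 3 or stage 44 replicate 2, and 3 without stage 44 replicate 3. The fall did not extend to the whole family: 4 of the 11 had a log2 fold change above 0 and the median was -0.08. Tubulins were grouped outside the gene lists. The beta-tubulin tubb2b measured 2819, 2766 and 2958 CPM at stage 42 and 2185, 2284 and 2277 CPM at stage 44 (-0.34 ± 0.06, edgeR adjusted p = 0.00241). The alpha-tubulin tuba1a measured 8499.7, 7774 and 8113 CPM at stage 42 and 6589, 6918 and 6491 CPM at stage 44 (-0.29 ± 0.06, edgeR adjusted p = 0.00577). The neuron-specific tubb3 measured 1689.7, 1764 and 1933 CPM at stage 42 and 1476, 1399 and 1577 CPM at stage 44 (-0.28 ± 0.06, edgeR adjusted p = 0.0167). In each of these 3 genes all stage 44 libraries were below all stage 42 libraries. The fourth, tubb, was lower by -0.25 ± 0.06, edgeR adjusted p = 0.0435. The summed level of the 11 tubulins was 19447, 18719 and 19919 CPM at stage 42 and 16164, 16382 and 16302 CPM at stage 44, and 5674 to 6253 CPM at stage 47. The tubb2b call held in every leave-one-out fit, tuba1a was lost without stage 44 replicate 1 (adjusted p = 0.057). The tubb3 call was lost without stage 42 replicate 2 or 3 or stage 44 replicate 1 or 2 (at most 0.119), and tubb in every fit but that without stage 42 replicate 1 (at most 0.209).

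The list of the axonal cytoskeleton held calls in both directions. Of 42 genes in the list of neurofilaments and axonal cytoskeleton, 5 were lower and 3 higher (10 and 3 without stage 42 replicate 1), with a list median of -0.09. Shares over all genes were 0.891% called lower and 1.43% called higher. The lower members were the tubulins tubb2b, tuba1a and tubb3, counted above, and dpysl3 and ina. The fit lacking stage 42 replicate 2 left 4 lower and 0 higher. The collapsin response mediator dpysl3, a regulator of growth cones, measured 1709, 1668 and 1815 CPM at stage 42 and 1372, 1415 and 1366 CPM at stage 44 (-0.32 ± 0.05, edgeR adjusted p = 0.00126). The intermediate filament ina, internexin, measured 373, 442 and 490.0 CPM at stage 42 and 323, 305 and 362 CPM at stage 44 (-0.40 ± 0.08, edgeR adjusted p = 0.00549). The kinase activator cdk5r1, which is needed for neuronal migration in mice and was named after its values were seen, measured 217, 251 and 252 CPM at stage 42 and 177, 184 and 184 CPM at stage 44 (-0.40 ± 0.06, edgeR adjusted p = 0.00106). The higher members were nefl, the microtubule-binding map7 (0.38 ± 0.09, edgeR adjusted p = 0.0241) and the dynein subunit dync1i1 (0.41 ± 0.10, edgeR adjusted p = 0.028), the last 2 named after their values were seen. The filaments ina and nefl thus went in opposite directions. The calls of dpysl3 and cdk5r1 held in every leave-one-out fit, and that of ina was lost without stage 42 replicate 3 (adjusted p = 0.0512). Those of map7 and dync1i1 were lost without stage 42 replicate 2 or stage 44 replicate 3, and dync1i1 also without stage 42 replicate 3 or stage 44 replicate 1 (at most 0.102 and 0.135). The growth cone protein gap43 gave -0.10 ± 0.06, edgeR adjusted p = 0.419, and the guidance cue draxin was lower, at 117, 132 and 123 CPM at stage 42 and 92.3, 95.8 and 95.4 CPM at stage 44 (-0.39 ± 0.07, edgeR adjusted p = 0.00293).

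Among synaptic genes, 1 of 48 vesicle release genes was called, against 2.32% of all genes. It was cplx2, complexin, which holds vesicles ready for fusion, and it measured 213, 254 and 264 CPM at stage 42 and 187, 184 and 199 CPM at stage 44 (-0.36 ± 0.07, edgeR adjusted p = 0.00407). Leaving out stage 42 replicate 1 made 5 of these genes higher and 4 lower. No member was called among 61 voltage-gated channels, 47 glutamate signalling genes and 48 adhesion molecules of synapses. In the fit without that library, 3 channels were higher and 3 lower, 3 glutamate genes were higher and 0 lower, and 3 adhesion genes were higher and 1 lower. Of all 16049 genes, that fit called 718 higher and 458 lower.

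A few transcription factors of young neurons fell in the neurogenesis list. Of its 43 measured members, 5 were lower and 1 higher (7 and 2 without stage 42 replicate 1, 2 and 1 without stage 44 replicate 1), with a list median of -0.07. Shares over all genes were 0.891% called lower and 1.43% called higher. The 5 lower members included the tubulin tubb2b, counted above, and the RNA-binding protein elavl4, which are not transcription factors. The LIM homeobox gene lhx5 measured 115, 118 and 117 CPM at stage 42 and 90.2, 91.9 and 88.5 CPM at stage 44, tight within each stage (-0.37 ± 0.06, edgeR adjusted p = 0.00133). Its relative lhx1 measured 186, 194 and 189 CPM at stage 42 and 145, 151 and 160.0 CPM at stage 44 (-0.32 ± 0.06, edgeR adjusted p = 0.00407). The spinal and hindbrain factor tlx3 gave -0.55 ± 0.14, edgeR adjusted p = 0.0372, and the neuronal RNA-binding protein elavl4 -0.25 ± 0.06, edgeR adjusted p = 0.0146. The exception was hes6.2, a hairy-related gene, which measured 24.4, 20.2 and 19.8 CPM at stage 42 and 28.4, 33.0 and 28.1 CPM at stage 44 (0.47 ± 0.11, edgeR adjusted p = 0.02). The lhx5 call held in every leave-one-out fit, and lhx1 missed it without stage 44 replicate 1 (adjusted p = 0.0508). Calls of tlx3 were lost in every fit but that without stage 42 replicate 1, those of elavl4 without stage 42 replicate 3 or stage 44 replicate 1 or 2, and those of hes6.2 without stage 42 replicate 2 or 3 or stage 44 replicate 2, with adjusted p up to 0.186, 0.117 and 0.113.

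Some genes that pattern the hindbrain were called lower and none was called higher. Of 32 midbrain and hindbrain genes, 6 were lower and 0 higher, with and without stage 42 replicate 1, and the list median was -0.14. Of the 32, 8 had a log2 fold change above 0. The share called lower over all genes was 0.891%. There were 3 lower without stage 42 replicate 2 or stage 44 replicate 2, and 1 without stage 44 replicate 1. The 6 included tfap2a, pax8 and gbx2.2, and also hoxd3 and hoxb4, which are described with the Hox genes. The gene tfap2a measured 82.4, 86.1 and 74.2 CPM at stage 42 and 60.5, 64.9 and 66.5 CPM at stage 44 (-0.34 ± 0.06, edgeR adjusted p = 0.00437). The gene pax8, a factor of hindbrain and spinal interneurons, measured 36.7, 37.4 and 36.2 CPM at stage 42 and 26.4, 26.2 and 29.2 CPM at stage 44 (-0.43 ± 0.09, edgeR adjusted p = 0.00826). The stage 44 libraries lay wholly below the stage 42 libraries in both. The midbrain-hindbrain boundary gene gbx2.2 gave -0.41 ± 0.09, edgeR adjusted p = 0.0138. Calls of tfap2a, pax8 and gbx2.2 were lost without stage 44 replicate 1, and gbx2.2 also without stage 42 replicate 2 or stage 44 replicate 2 (adjusted p at most 0.0526, 0.0607 and 0.0912). Forebrain and midbrain genes of the list, otx2, en1 and en2, gave 0.10 ± 0.08, edgeR adjusted p = 0.562, 0.01 ± 0.16, edgeR adjusted p = 0.983 and 0.02 ± 0.09, edgeR adjusted p = 0.944. The lean below 0 was not particular to the hindbrain. In a separate list of 29 telencephalon and interneuron genes, 8 were above 0 and the median was -0.04. In the main fit its only call was bcl11a, lower, which is described with the chromatin regulators.

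The few calls among monoamine neuron genes were on the same side. Of 27 measured, 3 were lower and none higher (4 and 0 without stage 42 replicate 1), among them nr4a2 and lmx1b.1. The list median was -0.04 and 10 of the 27 were above 0. Of all genes, 0.891% were called lower. The orphan receptor nr4a2, which dopamine neurons need, measured 114, 107 and 98.9 CPM at stage 42 and 75.9, 74.6 and 87.1 CPM at stage 44 (-0.43 ± 0.07, edgeR adjusted p = 0.00107). The homeobox gene lmx1b.1, of dopamine and serotonin neurons, gave -0.28 ± 0.07, edgeR adjusted p = 0.0266. The brainstem and midbrain factor dmbx1, named after its values were seen, measured 77.1, 96.1 and 97.3 CPM at stage 42 and 63.6, 60.5 and 66.98 CPM at stage 44 (-0.50 ± 0.09, edgeR adjusted p = 0.00293). Calls of nr4a2 and dmbx1 held in every leave-one-out fit, and that of lmx1b.1 was lost without stage 42 replicate 2 or 3 or stage 44 replicate 1 or 3 (adjusted p at most 0.175).

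Hox genes, which give hindbrain and spinal cord segments their identity, had log2 fold changes below 0 almost throughout. Of 21 measured, 3 were called lower and none higher, 20 had a log2 fold change below 0, and the median was -0.63. Of all 16049 genes, 0.891% were called lower and 7965 were below 0. Hox genes as a family were grouped outside the gene lists. There were 4 lower Hox calls without stage 42 replicate 1, 1 without stage 44 replicate 2 or 3, and none without stage 42 replicate 2 or stage 44 replicate 1. The gene hoxd3 measured 46.9, 56.8 and 52.9 CPM at stage 42 and 33.0, 32.5 and 43.9 CPM at stage 44 (-0.51 ± 0.11, edgeR adjusted p = 0.0124). In hoxb4 the libraries measured 5.27, 5.704 and 6.93 CPM at stage 42 and 3.19, 3.13 and 3.66 CPM at stage 44 (-0.84 ± 0.22, edgeR adjusted p = 0.0423). The last of them, hoxc3, named after its values were seen, measured 11.9, 12.7 and 11.96 CPM at stage 42 and 7.94, 9.03 and 8.77 CPM at stage 44 (-0.51 ± 0.12, edgeR adjusted p = 0.0229). None of these 3 overlapped between the stages. The more caudal members hoxa7, hoxb6, hoxb7, hoxb8, hoxb9, hoxc6 and hoxc8, expressed mainly in the spinal cord, summed to 11.8, 15.7 and 39.7 CPM at stage 42 and to 13.9, 12.6 and 6.41 CPM at stage 44. Stage 42 replicate 3 was the highest of all 18 libraries in that sum. Without it, 19 of the 21 Hox genes were below 0 and their median was -0.45, with no call. Without it the adjusted p was 0.0527 for hoxd3, 0.186 for hoxb4 and 0.0633 for hoxc3, none under the threshold. The hoxb4 call was lost in every fit but that without stage 42 replicate 1, and both hoxd3 and hoxc3 without stage 42 replicate 2 or stage 44 replicate 1, hoxd3 also without stage 44 replicate 2 and hoxc3 without stage 44 replicate 3 (adjusted p at most 0.186, 0.0849 and 0.125). Without stage 42 replicate 3 pax8, gbx2.2 and tfap2a kept their calls. Where the dissections ended caudally is not given in the sources used here, and its part in these values was not tested.

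**Figure D3:**
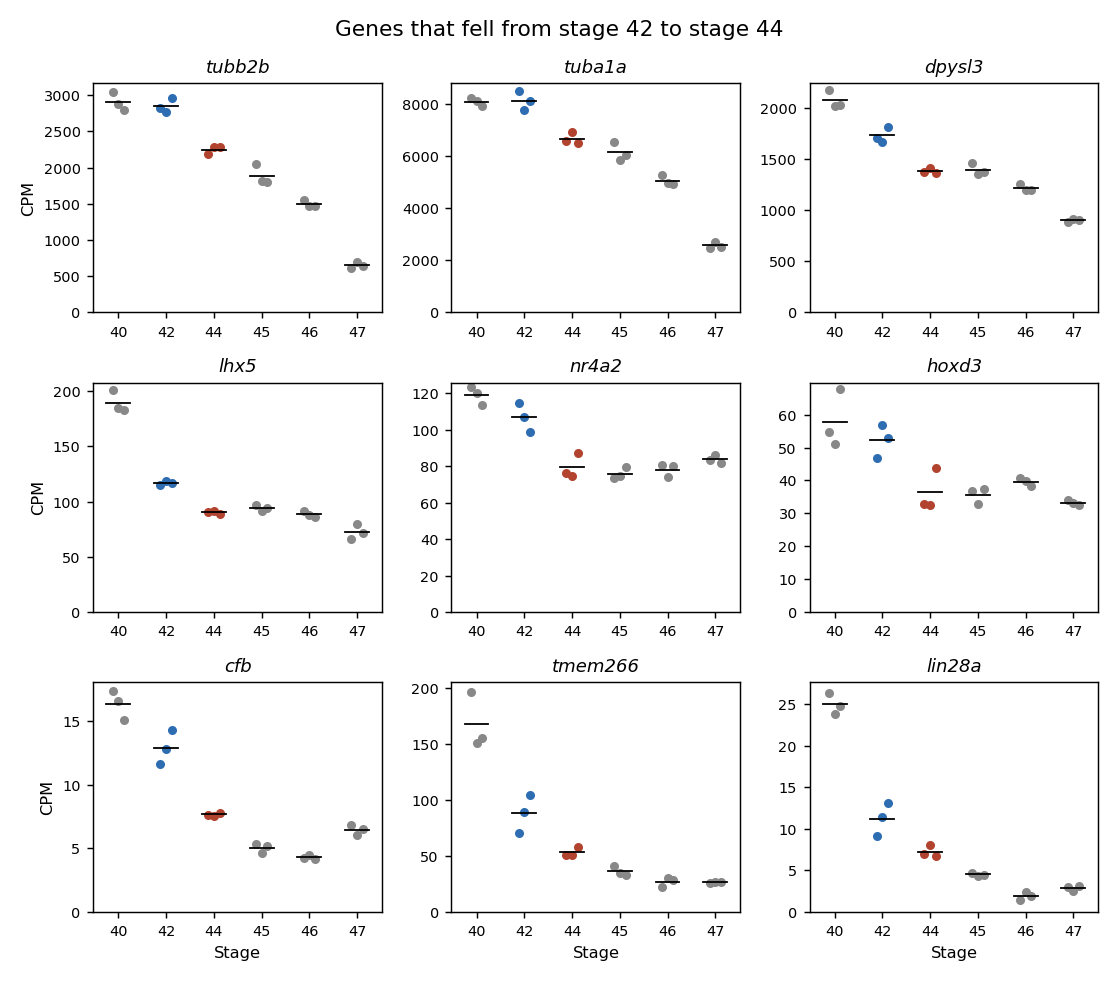
CPM of 9 genes that fell, on linear axes from 0, for each of the 18 libraries at the 6 stages (equally spaced categories); points are libraries, bars are means of 3, and stage 42 is blue and stage 44 red. In each panel the 3 stage 44 libraries lie below the 3 stage 42 libraries, and the tubulins are lowest at stage 47.

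The other large falls belonged to no single list. The complement factor cfb measured 11.6, 12.8 and 14.3 CPM at stage 42 and 7.62, 7.56 and 7.81 CPM at stage 44 (-0.75 ± 0.11, edgeR adjusted p = 0.000428). The voltage-sensing membrane protein tmem266 measured 70.8, 89.5 and 105 CPM at stage 42 and 50.8, 50.6 and 57.7 CPM at stage 44 (-0.73 ± 0.13, edgeR adjusted p = 0.00643). The gene pdzrn4 measured 50.5, 61.1 and 58.8 CPM at stage 42 and 37.2, 36.95 and 40.1 CPM at stage 44 (-0.58 ± 0.08, edgeR adjusted p = 0.000428). The stages did not overlap in any of these 3, and their calls held in every leave-one-out fit, as did those of tgfbi, a secreted matrix protein (-0.54 ± 0.10, edgeR adjusted p = 0.00363), and klhl23 (-0.52 ± 0.09, edgeR adjusted p = 0.00324). The RNA-binding protein lin28a, which blocks maturation of the let-7 microRNAs and marks early developmental time, measured 9.13, 11.4 and 13.1 CPM at stage 42 and 6.97, 8.03 and 6.76 CPM at stage 44 (-0.64 ± 0.13, edgeR adjusted p = 0.0103). Without stage 42 replicate 3 or stage 44 replicate 1 or 3 its adjusted p was up to 0.0905.

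Some of these genes are better known outside the brain. The inner ear protein coch gave -1.01 ± 0.25, edgeR adjusted p = 0.0348, and the cartilage matrix protein matn4 -0.99 ± 0.22, edgeR adjusted p = 0.0162. The cardiac myosin myh6 gave -0.84 ± 0.17, edgeR adjusted p = 0.00804 and the secreted inhibitor of vessel growth serpinf1 -0.57 ± 0.11, edgeR adjusted p = 0.0072. In matn4 a single library was high, stage 42 replicate 3 (7.48, 6.95 and 16.3 CPM at stage 42 and 5.59, 5.02 and 4.88 CPM at stage 44), and without it the log2 fold change was -0.48 with an adjusted p of 0.0998. Without the same library the adjusted p of coch was 0.271, that of myh6 0.0808 and that of serpinf1 0.0555. Cartilage markers, of which matn4 was the 1 called, summed to 423 to 579 CPM at stage 42 and 546 to 589 CPM at stage 44. None of the 7 skeletal muscle markers measured was called. In the main fit myh6 was the only call in the wider list of 23 skeletal muscle genes. Of these 23, 7 were above 0 and the median was -0.28. The part of these tissues was not tested. The calls of coch, matn4 and myh6 were also lost without stage 44 replicate 1 (adjusted p = 0.149, 0.0551 and 0.0571), and those of coch and matn4 without stage 44 replicate 2 as well (0.148 and 0.0628), and matn4 without stage 44 replicate 3 (0.0667). The oxygen-sensing hydroxylase egln3 (-0.69 ± 0.15, edgeR adjusted p = 0.0118) was lost without stage 44 replicate 1 or 3 (at most 0.0625). The last of the 15 largest named falls, chodl (-0.52 ± 0.10, edgeR adjusted p = 0.00543), was lost without stage 42 replicate 3 (0.0513).

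Protein folding in the endoplasmic reticulum was represented by 1 called gene of 27, the disulfide isomerase pdia4, at 52.9, 55.7 and 64.0 CPM at stage 42 and 45.4, 40.97 and 44.7 CPM at stage 44 (-0.40 ± 0.08, edgeR adjusted p = 0.0103). This share of 3.7% was close to the 2.32% called over all genes. Of the 27, 4 lay above 0. Without stage 42 replicate 1, 3 of the 27 were lower and none higher. Outside this list, the genes fkbp10, rcn3 and ckap4 of the same compartment, named after their values were seen, gave -0.51 ± 0.10, edgeR adjusted p = 0.0052, -0.51 ± 0.10, edgeR adjusted p = 0.00506 and -0.47 ± 0.11, edgeR adjusted p = 0.0293. The pdia4 call was lost without stage 42 replicate 3 or stage 44 replicate 2, with an adjusted p up to 0.0903. That of fkbp10 was lost without stage 42 replicate 3 (0.0525), and that of ckap4 without stage 42 replicate 2 or 3 or stage 44 replicate 1 or 3 (at most 0.133). Chromatin regulators split, with dnmt3a higher and the histone demethylase kdm5b (-0.26 ± 0.06, edgeR adjusted p = 0.0146) and the repressor bcl11a (-0.22 ± 0.05, edgeR adjusted p = 0.022) lower, out of 47 measured (4 higher and 4 lower without stage 42 replicate 1). Both lower calls were lost without stage 42 replicate 2 or 3 or stage 44 replicate 1, that of kdm5b also without stage 44 replicate 3 and that of bcl11a without stage 44 replicate 2 (adjusted p at most 0.0931 and 0.143).

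Genes of DNA replication stood slightly above 0 nearly without exception. Of 54 measured, 3 were called higher and none lower, 52 had a log2 fold change above 0 and the median was 0.18, against 50.4% of all genes above 0. Over all genes, 1.43% were called higher. At an unadjusted p under 0.05, 30 of the 54 passed, against 2801 of all 16049 genes. The polymerase subunit pold1 measured 53.3, 51.5 and 56.3 CPM at stage 42 and 66.8, 72.1 and 65.5 CPM at stage 44 (0.34 ± 0.07, edgeR adjusted p = 0.0142). Another polymerase subunit, pole, measured 50.2, 52.7 and 55.8 CPM at stage 42 and 65.9, 65.1 and 60.1 CPM at stage 44 (0.27 ± 0.06, edgeR adjusted p = 0.0269), and the chromatin assembly factor chaf1b gave 0.33 ± 0.09, edgeR adjusted p = 0.0423. The replication clamp pcna gave 0.29 ± 0.08, edgeR adjusted p = 0.0533 and did not pass. Without stage 42 replicate 1, 15 members were higher and the median was 0.24, whereas none was called without stage 42 replicate 2. The pold1 call was lost without stage 42 replicate 2 (adjusted p = 0.0853). Those of pole and chaf1b were lost without stage 42 replicate 2 or stage 44 replicate 1 or 2, and chaf1b also without stage 42 replicate 3 (at most 0.0999 and 0.193).

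Mitosis and spindle genes showed the same side with smaller values. None of 53 was called, 52 were above 0 and the median was 0.11; without stage 42 replicate 1, 5 were higher. The proliferation marker mki67 gave 0.15 ± 0.06, edgeR adjusted p = 0.22 and the topoisomerase top2a 0.25 ± 0.07, edgeR adjusted p = 0.081. Over the next steps this side did not last: from stage 45 to 46, 43 of the 54 replication genes and 45 of the 53 mitosis genes were called lower, with medians of -0.55 and -0.48. Of all genes, 22.9% were called lower from stage 45 to 46. The difference between the steps was itself called, higher at the step from stage 42, for 44 replication and 46 mitosis genes, against 16.7% of all genes.

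Other housekeeping lists gave small shifts. Beside their counts, 1.43% of all genes were called higher and 0.891% lower. Among 71 cytosolic ribosomal proteins 69 were above 0 with a median of 0.09, and among 55 respiratory chain genes 48 were above 0 with a median of 0.08; none was called in either. Summed ribosomal levels overlapped between the stages, at 65176, 60030 and 60090 CPM at stage 42 and 64949, 70181 and 60708 CPM at stage 44. Summed respiratory chain levels overlapped too, at 8876 to 9873 CPM at stage 42 and 9582 to 9889 CPM at stage 44. When stage 42 replicate 1 was left out, 2 ribosomal and 7 respiratory chain genes were higher. Cholesterol and sterol synthesis had 3 of 32 genes higher and none lower (4 and 0 without that replicate). The desaturase fads2, which makes polyunsaturated fatty acids, measured 80.9, 74.9 and 79.97 CPM at stage 42 and 94.5, 103 and 97.0 CPM at stage 44 (0.32 ± 0.06, edgeR adjusted p = 0.00444). Squalene synthase fdft1 gave 0.35 ± 0.08, edgeR adjusted p = 0.0261 and the sterol oxidase msmo1 0.38 ± 0.09, edgeR adjusted p = 0.0325. The fads2 call held in every leave-one-out fit, fdft1 was lost without stage 42 replicate 2 or stage 44 replicate 2 and msmo1 without stage 42 replicate 2 or any stage 44 library, with adjusted p up to 0.166 and 0.179. In the glycolysis and hypoxia list 3 of 27 genes were higher and 1 lower (6 and 1 without that replicate). They were slc2a1, lactate dehydrogenase ldhb (0.33 ± 0.07, edgeR adjusted p = 0.0185) and the mitophagy receptor bnip3 (0.27 ± 0.07, edgeR adjusted p = 0.0441) on the higher side and egln3 on the lower. The ldhb and bnip3 calls were both lost without stage 42 replicate 2 or 3 or stage 44 replicate 1 or 3 (adjusted p at most 0.125 and 0.177).

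**Figure D4:**
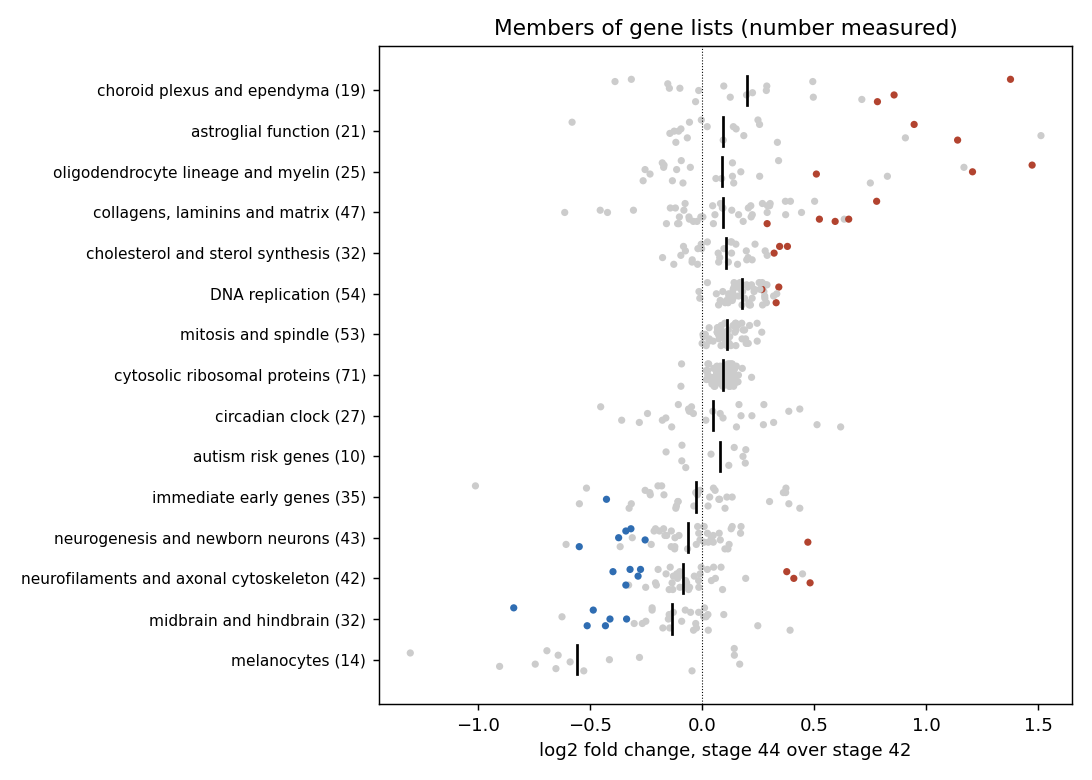
Each point is the log2 fold change of a gene at stage 44 over stage 42, in 15 gene lists with the number measured in brackets; red and blue points are genes called higher and lower, grey points were not called, and black bars are list medians. Replication, mitosis and ribosomal genes sit in narrow bands just above 0, and the midbrain and hindbrain list has 6 blue points and no red one.

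Single calls came from further lists. Beside their counts, 1.43% of all genes were called higher and 0.891% lower. In the axon guidance list 1 of 59 genes was higher and 3 were lower (3 and 4 without stage 42 replicate 1, 0 and 1 without stage 42 replicate 2). The higher was cntn2, and the lower were draxin, the ephrin efnb2 (-0.25 ± 0.06, edgeR adjusted p = 0.0309) and rgmb, of the repulsive guidance family (-0.23 ± 0.05, edgeR adjusted p = 0.0149). Retinoic acid genes had 2 of 17 higher and none lower (2 and 1 without stage 42 replicate 1), rbp4 and the synthesis enzyme aldh1a3 (0.57 ± 0.12, edgeR adjusted p = 0.0103). The lysosomal protease ctsa (-0.22 ± 0.06, edgeR adjusted p = 0.0414) was the only call of 44 in its list, also in the count without stage 42 replicate 1. Of 23 epithelial genes the tight junction protein cldn1 alone was called (0.48 ± 0.10, edgeR adjusted p = 0.0119; 2 higher and 1 lower without that replicate), and the RNA-binding protein hnrnpa2b1 was lower (-0.20 ± 0.05, edgeR adjusted p = 0.0432). The calls of efnb2, rgmb, aldh1a3, ctsa, cldn1 and hnrnpa2b1 were each lost without stage 42 replicate 2 or 3, and all but that of aldh1a3 also without stage 44 replicate 1. Those of efnb2 and ctsa were lost without stage 44 replicate 2, those of all but efnb2 without stage 44 replicate 3, and that of hnrnpa2b1 without stage 42 replicate 1. The highest adjusted p over the leave-one-out fits was 0.179 for efnb2, 0.109 for rgmb, 0.0552 for aldh1a3, 0.208 for ctsa, 0.0873 for cldn1 and 0.197 for hnrnpa2b1.

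Lists tied to daily rhythm, activity and disease held 0 or 1 call each, beside the 2.32% called over all genes. None of 27 circadian clock genes was called. At an unadjusted p under 0.05, 12 of the 27 passed, against 2801 of all 16049 genes. The clock gene per1 gave 0.44 ± 0.13, edgeR adjusted p = 0.0862 and nr1d2 0.51 ± 0.15, edgeR adjusted p = 0.0626, while noct gave -0.28 ± 0.08, edgeR adjusted p = 0.0597 and aanat, which makes melatonin, 0.62 ± 0.20, edgeR adjusted p = 0.101. In the fit lacking stage 42 replicate 1, 6 clock genes were higher and 1 lower, beside 718 and 458 of all 16049 genes. Of 35 immediate early genes, which respond to neuronal activity, nr4a2 alone was called (1 higher and 1 lower without that replicate). The gene fos gave -0.02 ± 0.23, edgeR adjusted p = 0.9755, egr1 -0.33 ± 0.27, edgeR adjusted p = 0.57 and arc 0.10 ± 0.21, edgeR adjusted p = 0.841. None of 10 autism risk genes, the subject of the series, was called. The chromatin remodeller chd8 gave 0.04 ± 0.07, edgeR adjusted p = 0.823, the kinase dyrk1a 0.19 ± 0.09, edgeR adjusted p = 0.29 and the sodium channel scn2a 0.12 ± 0.10, edgeR adjusted p = 0.576. Without stage 42 replicate 1, 1 was higher and 1 lower. No gene was called among 22 of the Hedgehog pathway, 30 of the Notch pathway, 50 of the Wnt pathway, 19 of microglia and leukocytes or 28 of the proteasome. With stage 42 replicate 1 left out, 1 Hedgehog gene was higher, 1 Notch gene lower, and 1 Wnt gene higher and 1 lower. A gene that missed the threshold is not shown by that to have stayed level.

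Most called genes moved here in the direction that they took over the whole course. Stage 47 against stage 40 shares no library with this comparison, and it called 80.8% of all genes, 40% higher and 40.8% lower. Of the 230 genes called higher, 199 (86.5%) were also called higher at stage 47 than at stage 40 and 21 (9.13%) were called lower. Of the 143 called lower, 119 (83.2%) were also lower at stage 47 and 15 (10.5%) higher. Among all genes with a log2 fold change above 0 at this step, 47.2% were called higher over the course and 35.1% lower, and among those below 0, 46.7% were called lower and 32.7% higher. Seen from the other side, the shared genes were 3.1% of the 6420 that were higher at stage 47 and 1.82% of the 6553 that were lower.

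The stage of the highest mean was counted for each called gene, with the share over all genes beside it. Of the 230 higher genes, 146 had their highest mean at stage 47, 38 at stage 46, 15 at stage 45, 24 at stage 44 itself and 7 at stage 40. Stage 47 had the highest mean for 63.5% of them and for 37.7% of all genes. A gene called higher here could not have its highest mean at stage 42, nor one called lower at stage 44. Of the 143 lower genes, 94 had their highest mean at stage 40 and 37 at stage 42, and 89 had their lowest mean at stage 47, 20 at stage 45 and 20 at stage 44. Stage 40 had the highest mean for 65.7% of them and for 32.5% of all genes. The transporter slc7a10 had a mean of 31.3 CPM at stage 44, 37.8 CPM at stage 46 and 22.1 CPM at stage 47.

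**Figure D5:**
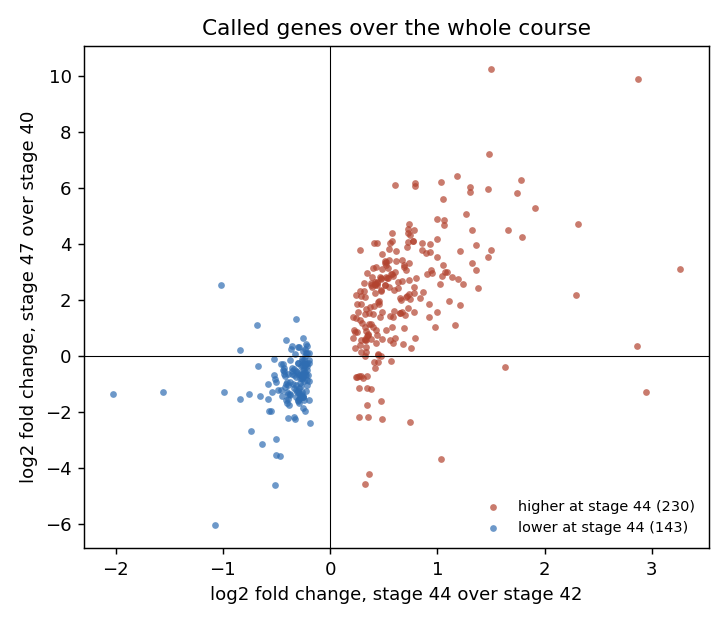
Each of the 373 called genes is placed by its log2 fold change at stage 44 over stage 42 (horizontal) and at stage 47 over stage 40 (vertical), 2 comparisons with no library in common. Of the 230 red points 205 lie above the horizontal axis, and of the 143 blue points 124 lie below it.

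The step from stage 42 to 44 was also set against the step from stage 45 to 46 in 1 test of their difference, which called 4610 of 16049 genes (28.7%). Of the genes called higher here, the steps differed for 85 of 230, 144 were called higher at the later step too and 21 were called lower there. Of those called lower here, the steps differed for 86 of 143, 43 were lower again and 21 were higher. Over all genes, 19.2% were called higher and 22.9% lower at the later step. The tubulins tubb2b and tuba1a were lower at both steps, with -0.33 (edgeR adjusted p = 9.15e-05) and -0.28 (edgeR adjusted p = 0.000305) from stage 45 to 46, whereas pold1, pole and chaf1b turned lower. The sterol genes fdft1 and msmo1, higher here, were at -0.93 (edgeR adjusted p = 1.14e-08) and -1.09 (edgeR adjusted p = 1.17e-08) at the later step.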

How the data were processed

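For each of the 18 untreated libraries the authors deposited raw counts of reads per gene as whole numbers. A second deposited table holds log2 values of CPM + 1 after full-quantile normalization, as read from the values. STAR 2.7.3 is named in the submitters' processing notes. Neither the genome build nor the annotation, the counter or the handling of strand is given in the sources used here, so overlapping genes and near-identical copies are uncertain as single genes. All 16049 deposited genes reached 1 CPM in 3 or more libraries. Counts were fitted in edgeR 4.0.16 (R 4.3.3) over all 18 libraries with TMM factors, group means and the robust quasi-likelihood F-test. The low-count filter removed 0 genes, and 3135 without a usable symbol (19.5%) were tested but not named. CPM used effective library sizes. The test was checked on simulated data.

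The members and the gene lists were chosen with earlier results of these data known. Named genes were the 15 calls with the largest rise and the 15 with the largest fall, taken from those whose mean log2 CPM was 1 or more and whose stages did not overlap (155 and 131 met this), and up to 6 called members of each list with the lowest p. A few genes that this rule or the lists hold are not reported here. Others are said to have been named after their values were seen. Alternatives were relative log expression factors, 2 other filters, the 6 libraries alone, a replicate block, DESeq2 1.42.0, limma 3.58.1 on the deposited log2 values, and each library left out in turn. The drug-treated libraries of the series were not used here.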

Additional observations from a re-analysis of the deposited data

Results flagged for a closer look

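The following named genes were called at the steps from stage 42 to 44 and from stage 45 to 46, in opposite directions. A call in the test of the difference between the steps was a further condition of the choice. The adjusted p of that test is therefore no separate support. Each difference is the log2 change from stage 42 to 44 minus that from stage 45 to 46. Replication and chromatin assembly genes that were higher here and lower later gave differences of 0.82 for pold1 (edgeR adjusted p = 5.14e-06), 0.81 for pole (7.45e-07) and 1.16 for chaf1b (4.24e-07). Sterol genes gave 1.28 for fdft1 (4.82e-08) and 1.47 for msmo1 (5.44e-08). The retinoic acid synthesis enzyme aldh1a3 gave 1.55 (3.82e-07), the hairy-related hes6.2 0.84 (0.000256), the proteoglycan bcan 0.49 (0.000771) and the adhesion gene nectin1l1 2.2 (1.75e-06).

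Other genes were lower here and higher from stage 45 to 46. The inner ear protein coch gave a difference of -2.34 (edgeR adjusted p = 2.49e-05), the lysosomal protease ctsa -0.80 (1.41e-07), the histone demethylase kdm5b -0.72 (6.57e-07), the repressor bcl11a -0.52 (1.1e-05) and the guidance molecule rgmb -0.42 (0.000125). Of these genes nectin1l1 alone kept its call at the step from stage 42 to 44 whichever of the 6 libraries was left out.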

How the results depend on the processing

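The count of 373 calls kept within 1.5 times under relative log expression factors (374), no filter (373), a filter of 5 CPM in 3 libraries (418) and limma on the deposited values (329). It was 120 with the 6 libraries alone, where fewer samples set the spread, and 597 with DESeq2, for which the cause was not tested. Leaving out 1 library gave 143 to 1176 calls, the lowest without stage 42 replicate 2 and the highest without stage 42 replicate 1. Deviations from the stage mean correlated at -0.01, -0.08 and -0.08 between libraries of equal replicate number, and at -0.165 to 0.234 between the others. With 3 libraries per stage these deviations are not independent, so they cannot tell whether replicate numbers mark a shared origin. The replicate block gave 342 calls, 325 of them shared. For the difference from the step between stages 45 and 46, the main count of 4610 was 4502 with the replicate block, 4431 to 4867 over the alternatives and 3773 to 5092 with 1 library left out. Of the 94 genes named as called, 36 kept their call whichever library was left out; 91 kept it under relative log expression factors, 90 with the block, 94 with DESeq2, 84 with limma and 41 with the 6 libraries alone. Relative log expression factors and the block lost ctsa, hnrnpa2b1 and tubb, and the block also mag. The genes lost in limma were these 4, chaf1b, fa2h, lama2, thrb, cntn2 and tuba1a. None reversed, and tuba1a was exactly 0 in limma, since it holds the top rank that quantile normalization sets equal. Depth limits low genes: at stage 42 tat was below 1.1 CPM and fa2h was at 0.467 to 1.15 CPM.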
